A study of Mus musculus with 4 samples.

Results

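The genes described here are embryonic globins and genes of the red blood cell: the globin genes Hbb-bh1, Hbb-y and Hba-x, the red cell membrane genes Slc4a1, Kel and Epb42, the heme synthesis gene Alas2 and the erythroid transcription factor genes Klf1 and Gata1. They were chosen by function, with earlier results of these data known. A gene was measured when a transcript cluster of the array, the set of probes that reads 1 transcript, carried its symbol and no other. That held for 8 of the 9 genes, out of 22180 genes measured in all, and each of the 8 had 1 cluster. Alas2 lies on a cluster that it shares with its neighbour Apex2, so that cluster is given separately. The 4 arrays (Affymetrix Mouse Gene 2.0 ST) held RNA from Tbx1 knockout (Tbx1KO) palatal shelves at embryonic day 13.5 (E13.5), wild-type palatal shelves at E13.5, Tbx1KO head at E12.5 and wild-type head at E12.5, with 1 array for each. All embryos shared a mixed C57BL/6J and FVB/N background. The palatal shelves are the outgrowths that form the secondary palate, and the T-box factor Tbx1 is required in the embryo to form the pharyngeal arches. The labels do not say which allele of Tbx1 was used or whether several embryos were pooled.

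Red blood cells of the mouse embryo come in successive waves. Primitive cells arise in the yolk sac, enter the circulation as nucleated cells and carry embryonic globins, and definitive cells from the fetal liver, which carry adult globins, then replace them. Whether any red cells form in the head or palate was not tested here. Gata1 and Klf1 proteins bind GATA and CACCC motifs in globin and other erythroid genes.

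The bases upstream of 3 of these genes and of 2 adult globin genes are shown because the values of embryonic and adult globin genes across the tissues are set side by side further on. The table of RefSeq promoter windows used (GRCm38.p6) held 7 of the 9 genes, all but Hbb-bh1 and Slc4a1. The 250 bases before the start are printed 5′ to 3′ on the strand of the gene, first for Hbb-y, Hba-x and Kel, then for the adult beta globin gene Hbb-bs and the adult alpha globin gene Hba-a1. Capitals mark 4 motifs on either strand. They are the GATA motif (any of AGATAA and AGATAG and the same words with T in first place), the CACCC motif, the CCAAT motif and a TATA-like word (ATAAA or, in its other form, ATAAG), which can overlap the GATA motif. The motif words were settled after these windows had been read.
Hbb-y, chr7:103853208-103853457, minus strand: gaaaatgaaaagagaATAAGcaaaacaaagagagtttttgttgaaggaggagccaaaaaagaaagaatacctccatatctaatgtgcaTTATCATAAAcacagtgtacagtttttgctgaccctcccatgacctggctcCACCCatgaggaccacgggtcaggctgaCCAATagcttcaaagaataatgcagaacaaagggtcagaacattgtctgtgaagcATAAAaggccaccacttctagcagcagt
Hba-x, chr11:32276350-32276599, plus strand: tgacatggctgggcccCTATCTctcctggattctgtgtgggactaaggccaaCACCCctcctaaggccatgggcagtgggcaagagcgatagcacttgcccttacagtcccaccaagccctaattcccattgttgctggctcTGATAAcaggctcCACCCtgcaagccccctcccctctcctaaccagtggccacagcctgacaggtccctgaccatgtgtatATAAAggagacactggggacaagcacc
Kel, chr6:41704326-41704575, minus strand: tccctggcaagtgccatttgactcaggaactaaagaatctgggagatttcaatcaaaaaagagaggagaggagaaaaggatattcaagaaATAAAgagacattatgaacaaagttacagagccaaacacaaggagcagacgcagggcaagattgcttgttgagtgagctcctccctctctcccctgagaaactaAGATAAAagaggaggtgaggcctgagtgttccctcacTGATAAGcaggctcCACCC
Hbb-bs, chr7:103827929-103828178, minus strand: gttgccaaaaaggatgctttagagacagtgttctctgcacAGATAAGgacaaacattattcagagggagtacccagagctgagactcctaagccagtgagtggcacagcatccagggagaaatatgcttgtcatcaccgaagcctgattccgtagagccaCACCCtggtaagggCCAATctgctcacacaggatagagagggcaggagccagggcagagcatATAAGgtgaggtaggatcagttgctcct
Hba-a1, chr11:32283422-32283671, plus strand: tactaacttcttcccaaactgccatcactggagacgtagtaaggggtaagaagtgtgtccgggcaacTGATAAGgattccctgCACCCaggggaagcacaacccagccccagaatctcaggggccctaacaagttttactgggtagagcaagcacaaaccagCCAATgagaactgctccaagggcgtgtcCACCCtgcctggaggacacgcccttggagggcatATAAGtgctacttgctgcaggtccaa

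All 4 globin windows held at least 1 GATA motif, at least 1 CACCC motif and a TATA-like word less than 30 bases before the start, and CCAAT was found in each except that of Hba-x. In Hbb-y the CACCC motif began 111 bases and CCAAT 83 bases before the start, and in the adult gene Hbb-bs they began 90 and 76 bases before it. The Kel window held 2 GATA motifs, which began 56 and 19 bases before the start used for that window. It begins at position 41704326, whereas the annotated Kel gene reaches 41704334. The last bases printed for Kel, with its CACCC motif, therefore lie inside the annotated gene. The window of Alas2 had 1 GATA and 3 CACCC motifs, that of Klf1 had 1 of each, that of Epb42 had 1 GATA and 0 CACCC, and that of Gata1 had 0 GATA and 2 CACCC. Such short words are common. Of 32851 RefSeq windows of this length, 26.5% held the GATA motif, 52% CACCC, 33.8% CCAAT and 49.5% the TATA-like word. A match describes the letters and is not shown to be a binding site.

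**Figure D1:**
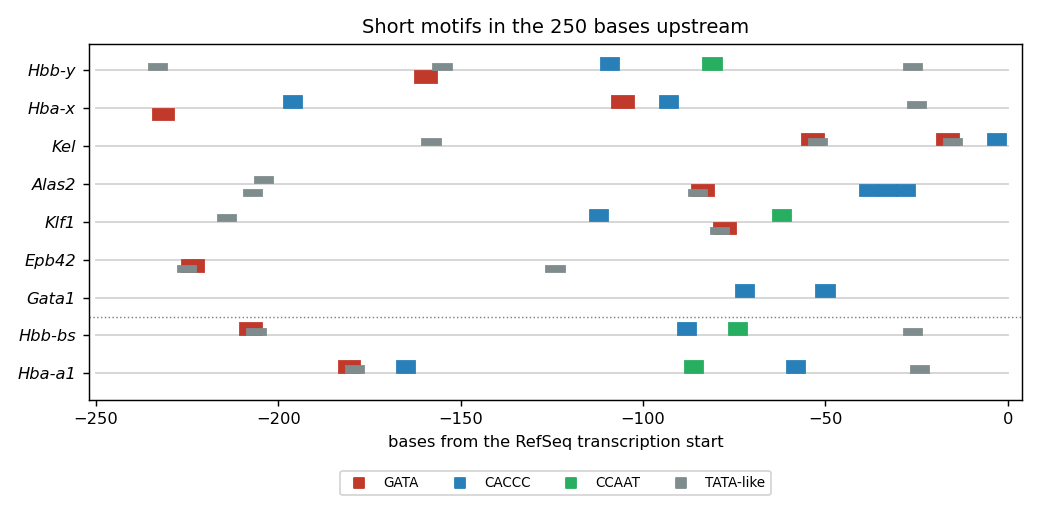
Positions of 4 short motifs in the 250 bases upstream of the RefSeq start of 9 genes, in bases from the start. Boxes above a line lie on the strand of the gene and boxes below it on the other strand. The 2 adult globin genes are below the dotted line, and the TATA-like word lies within 30 bases of the start in the 4 globin genes.

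Values are log2 expression as the authors deposited them after RMA, a procedure that corrects background, sets all arrays to 1 distribution and summarises the probes of a cluster. A gene entered a comparison of 2 arrays when the higher value was at or above 6.16, the median over all genes and arrays. The targeted gene Tbx1 was at 6.18 in Tbx1KO and 7.39 in wild-type shelves, and at 6.25 in Tbx1KO and 6.83 in wild-type head. Over all clusters, Pearson's r was 0.988 to 0.991 between the 2 arrays of a tissue and 0.973 to 0.979 across tissues. As a check of the tissue labels, each of the 4 measured palatal mesenchyme markers was higher in both shelf arrays than in both head arrays. Osr2, a factor of palatal mesenchyme, was at 11.15 and 10.99 in the Tbx1KO and wild-type shelves, and at 9.46 and 9.43 in the Tbx1KO and wild-type head. The neuronal gene Stmn2 was at 10.10 and 10.06 in the shelves and at 11.67 and 11.59 in the head, in the same order.

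Embryonic globin RNA was much lower in the palatal shelves at E13.5 than in the head at E12.5, in both genotypes. Hbb-bh1, an embryonic beta-like globin of primitive red cells, was at 5.42 in Tbx1KO and 5.50 in wild-type shelves, and at 8.88 in Tbx1KO and 9.45 in wild-type head. Both shelf arrays lay below the limit for entry and both head arrays well above it. The limit is a median over genes and not a limit of detection, but dim signals are compressed, so folds against them are uncertain. In the knockout this was a log2 difference of -3.46, or 11.01-fold lower in the shelves, and in the wild type -3.94, or 15.40-fold. Of all genes that entered, 6 were at least as much lower in the knockout and 8 in the wild type, Hbb-bh1 included. In bulk tissue fewer red cells and less RNA per cell cannot be told apart.

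The other embryonic globins moved the same way by less. Hbb-y, the epsilon-type embryonic beta globin, was at 10.95 in Tbx1KO and 10.78 in wild-type shelves, and at 12.14 in Tbx1KO and 12.42 in wild-type head. The head values of Hbb-y lie near the top of the range of the arrays, where differences can be compressed. Hba-x, the zeta-type embryonic alpha globin, was at 6.55 in Tbx1KO and 6.53 in wild-type shelves, and at 8.48 in Tbx1KO and 8.68 in wild-type head. For both genes the shelf arrays lay close together and below both head arrays. The difference for Hbb-y was -1.20 (2.30-fold lower) in the knockout and -1.64 (3.12-fold lower) in the wild type, and that for Hba-x was -1.93 (3.80-fold) and -2.15 (4.43-fold).

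The 3 red cell membrane genes were lower in the shelves as well. Slc4a1, the anion exchanger band 3, was at 6.62 in Tbx1KO and 6.71 in wild-type shelves, and at 8.79 in Tbx1KO and 9.24 in wild-type head, which is 4.48-fold lower in the shelves in the knockout and 5.79-fold in the wild type. Kel, the Kell blood group glycoprotein, was at 3.94 in Tbx1KO and 3.70 in wild-type shelves, and at 5.41 in Tbx1KO and 6.20 in wild-type head. Epb42, protein 4.2 of the membrane skeleton, was at 5.03 in Tbx1KO and 4.76 in wild-type shelves, and at 5.89 in Tbx1KO and 6.23 in wild-type head. Kel and Epb42 reached the limit for entry on the wild-type head array alone, where they had to be high to enter, and their differences rest on dim signals, which RMA compresses. The difference for Kel was -1.46 in the knockout and -2.51 in the wild type, and that for Epb42 was -0.85 and -1.47.

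The 2 transcription factor genes were dim on every array. Klf1, an activator of adult beta globin, was at 4.90 in Tbx1KO and 5.10 in wild-type shelves, and at 4.54 in Tbx1KO and 4.96 in wild-type head. Gata1, the factor that directs red cell differentiation, was at 4.28 in Tbx1KO and 4.42 in wild-type shelves, and at 4.55 in Tbx1KO and 4.43 in wild-type head. The shelf and head arrays overlapped for Klf1, and for Gata1 they lay within 0.27 of each other. Neither gene reached the limit for entry on any array.

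Counted over the 8 measured genes with no filter, 6 were lower in the shelves than in the head by at least 0.32 on the log2 scale in each genotype, and 1, Klf1, was that much higher in the knockout. Among all genes with no filter, 15.7% were that much lower in the knockout and 14.0% in the wild type, and among the genes that entered 17.0% and 20.0% were. For calls higher the shares were 13.5% and 16.1% with no filter, and 16.9% and 15.9% among genes that entered. The median log2 difference of the 8 genes was -1.33 in the knockout and -1.89 in the wild type, where that of all genes that entered was -0.01 and -0.034. Both shelf arrays lay below both head arrays for 7 of the 8 genes, against 28.0% of all genes and 37.1% of those that entered on any array. Gata1 is among the 7 by a very small margin, at 4.42 in wild-type shelves and 4.43 in wild-type head, and was dim on every array. At 1.5-fold and 2-fold, 5.25% and 1.59% of all genes were higher in the knockout shelves than in the knockout head, and 0 of the 8 were.

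**Figure D2:**
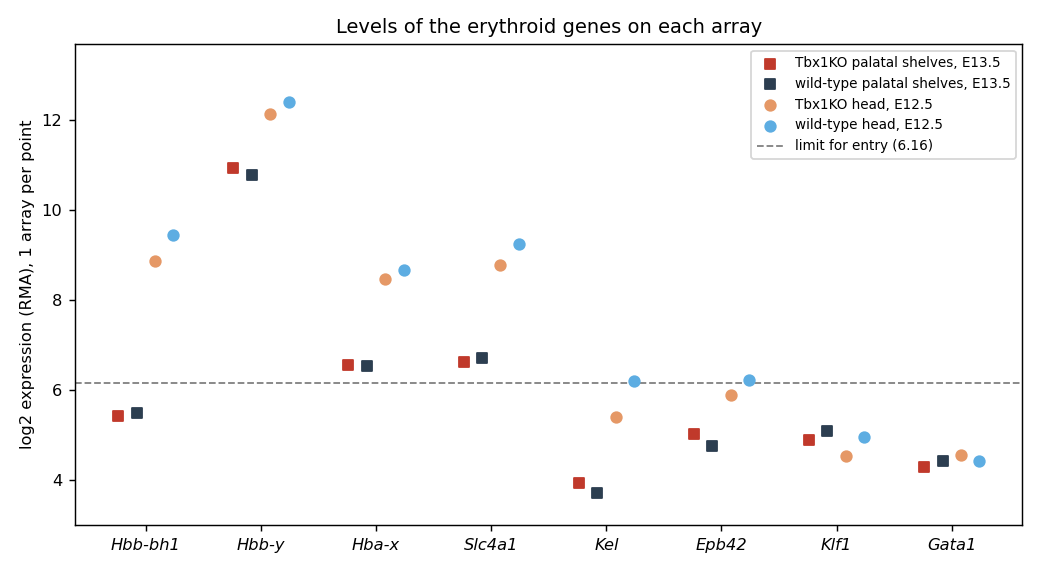
Log2 expression (RMA) of the 8 measured erythroid genes, with 1 point per array and the limit for entry (6.16) as a dashed line. The shelf arrays (squares) lie far below the head arrays (circles) for the 3 embryonic globins and for Slc4a1, and Klf1 and Gata1 lie below the limit on every array.

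An additive limma fit with genotype and tissue used the 4 arrays together. It joined 11999 genes and left 1 residual degree of freedom. Tissue and stage differ together and cannot be told apart. In this fit the 6 genes that entered were called lower in the shelves, but Hbb-bh1, Kel and Epb42 entered through head arrays alone, so the entry rule favoured that direction. Hbb-bh1 had a log2 difference of -3.70 (SE 0.14, limma adjusted p = 4.3e-05), Slc4a1 one of -2.35 (SE 0.12, limma adjusted p = 9.9e-05) and Hba-x one of -2.04 (SE 0.11, limma adjusted p = 0.0001). Kel was at -1.98 (SE 0.23, limma adjusted p = 0.0013), Hbb-y at -1.42 (SE 0.13, limma adjusted p = 0.00056) and Epb42 at -1.16 (SE 0.16, limma adjusted p = 0.0024). Of all genes tested 14.9% were called lower and 13.0% higher. With no filter, over all 22180 genes, the limma adjusted p was 0.00037 for Hbb-bh1, 0.0049 for Kel and 0.0094 for Epb42. In that fit Klf1 had a difference of 0.25 (SE 0.12, limma adjusted p = 0.28) and Gata1 one of -0.14 (SE 0.13, limma adjusted p = 0.57). The 1 residual degree of freedom measures how far the genotype difference departs from being equal in head and shelves. The SEs and p-values rest on that departure and on a variance shared across genes, not on replicates. The departure may be technical or a real difference.

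Adult globin clusters differed less between the tissues than the embryonic globins did. No cluster carries 1 adult globin gene alone, so 2 clusters shared by Hba-a1 and Hba-a2 and 3 shared by Hbb-b1, Hbb-b2 and Hbb-bs were read. The brighter adult alpha cluster was at 12.47 in Tbx1KO and 12.49 in wild-type shelves, and at 12.71 in Tbx1KO and 12.83 in wild-type head. These values lie near the top of the range of the arrays, where differences can be compressed. The brightest adult beta cluster was at 8.36 in Tbx1KO and 8.58 in wild-type shelves, and at 8.15 in Tbx1KO and 8.52 in wild-type head. Shelf and head arrays overlapped for this beta cluster, and the alpha cluster was slightly lower in the shelves.

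Side by side, Hba-x had a difference of -1.93 and the brighter adult alpha cluster one of -0.25 in the knockout, and in the wild type the values were -2.15 and -0.34. Hbb-y had -1.20 and the brightest adult beta cluster 0.20 in the knockout, with -1.64 and 0.06 in the wild type. The second adult beta cluster was at 0.49 in the knockout and 0.18 in the wild type. When the limma fit was run over all 19266 clusters that entered, named or not, the adult clusters had differences of -0.29 (SE 0.11) and -0.19 (SE 0.12) for alpha and 0.13 (SE 0.11) and 0.33 (SE 0.13) for beta, with limma adjusted p of 0.17, 0.35, 0.49 and 0.18. In that fit Hbb-bh1, Hba-x and Hbb-y had limma adjusted p of 0.011, 0.011 and 0.02. The unequal change of embryonic and adult globins was not itself tested. Globin genes are close relatives and can share probe signal.

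The cluster that Alas2 shares with Apex2 was also lower in the shelves. Alas2 encodes the erythroid form of the first enzyme of heme synthesis, and Apex2 a DNA repair nuclease. Their cluster was at 7.25 in Tbx1KO and 7.37 in wild-type shelves, and at 7.95 in Tbx1KO and 8.24 in wild-type head, a limma difference of -0.79 (SE 0.11, limma adjusted p = 0.031 over all clusters). A cluster of Apex2 alone was at 7.94 in Tbx1KO and 7.89 in wild-type shelves, and at 7.87 in Tbx1KO and 7.74 in wild-type head. The shared cluster was thus lower in the shelves where that of Apex2 alone was not.

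**Figure D3:**
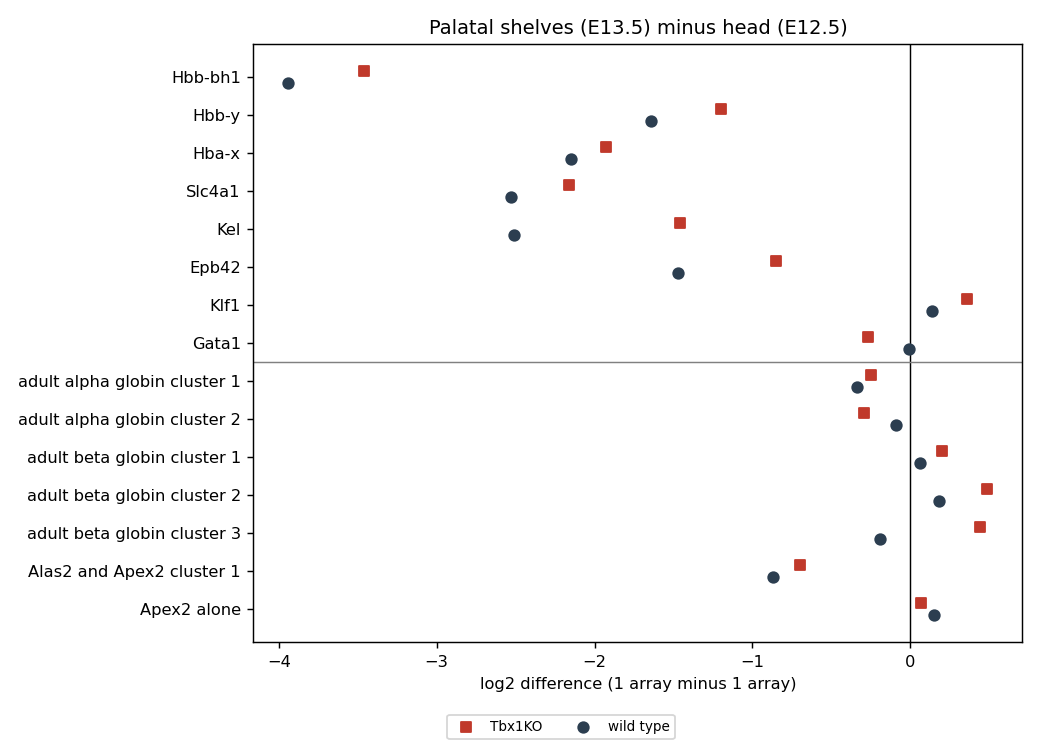
Log2 difference of palatal shelves (E13.5) minus head (E12.5) in Tbx1KO (squares) and wild type (circles), 1 array minus 1 array, for the 8 genes above the grey line and for clusters shared by several genes and Apex2 below it. Embryonic globins and membrane genes lie between -3.94 and -0.85, and the adult globin clusters between -0.34 and 0.49.

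Some other genes of the red cell were also called lower in the shelves, where 14.9% of all genes tested were called lower and 13.0% higher. Of 12 tested genes of the red cell membrane and blood groups, 6 were called lower and 1 higher. Add2, beta-adducin of the membrane skeleton, was at 6.74 in Tbx1KO and 6.56 in wild-type shelves, and at 8.26 in Tbx1KO and 8.38 in wild-type head (limma difference -1.68, SE 0.12, limma adjusted p = 0.0002), but neurons also make it. Ermap, an erythroid membrane protein, was at -1.42 (SE 0.11, limma adjusted p = 0.00026) and Sptb, the red cell beta-spectrin, at -0.76 (SE 0.10, limma adjusted p = 0.0023). Aqp1, a water channel of red cells and endothelium, was higher by 0.69 (SE 0.13, limma adjusted p = 0.0081).

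Among 14 tested genes of erythropoietin signalling and late red cell enzymes, 4 were called lower and 0 higher. Car2, a carbonic anhydrase of red cells and other tissues, fell by 1.31 on the log2 scale (SE 0.11, limma adjusted p = 0.00033), and Bpgm, the enzyme that makes the oxygen affinity regulator of hemoglobin, fell by 0.60 (SE 0.11, limma adjusted p = 0.0085). Of 17 tested erythroid transcription factors and cofactors, 3 were called lower and 3 higher, near the shares over all genes. Tal1, a partner of Gata1, was at -0.74 (SE 0.10, limma adjusted p = 0.0028), and Runx1, which blood stem cells need but which palatal tissue also uses, was at 1.72 (SE 0.12, limma adjusted p = 0.00023).

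Heme synthesis and iron genes had few calls. Of 12 heme synthesis genes 0 were called lower and 1 higher, Cpox, coproporphyrinogen oxidase, at 0.49 (SE 0.11, limma adjusted p = 0.017). Of 10 iron supply genes 0 were called in either direction by limma, and 2 of them had an unadjusted limma p under 0.05, as did 4826 of all 11999 genes. The transferrin receptor gene Tfrc was at 8.14 in Tbx1KO and 7.76 in wild-type shelves, and at 8.21 in Tbx1KO and 8.24 in wild-type head.

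The summed levels of vessel markers and of other blood cells differed by less between the tissues, and that unequal change was not tested. The summed signal of the 12 endothelial genes, as log2, was 12.05 in Tbx1KO and 11.84 in wild-type shelves, and 11.87 in Tbx1KO and 11.81 in wild-type head, and 1 gene was called lower and 1 higher. For 15 macrophage genes the sums were 10.61 and 10.86 in the shelves and 10.72 and 10.78 in the head, in the same order, with 1 of 7 tested genes called lower. For 9 megakaryocyte and platelet genes they were 10.12 and 10.06 in the shelves and 10.33 and 10.44 in the head, with 2 of 4 tested genes called lower, Ppbp (-0.94, SE 0.22, limma adjusted p = 0.02) and Gp9 (-0.37, SE 0.10, limma adjusted p = 0.036). The sums of these 9 genes were carried mainly by Thbs1. With no filter, shelves minus head was below 0 for 8 of the 9 in the knockout and for 9 in the wild type. The medians of the 9 genes were -0.16 and -0.20. Among all genes that entered, 5992 of 11661 in the knockout and 6409 of 11765 in the wild type were below 0. For the 8 erythroid genes the sums were 11.17 and 11.04 in the shelves and 12.54 and 12.85 in the head, carried mainly by Hbb-y. How much blood stayed in each dissected sample was not tested.

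**Figure D4:**
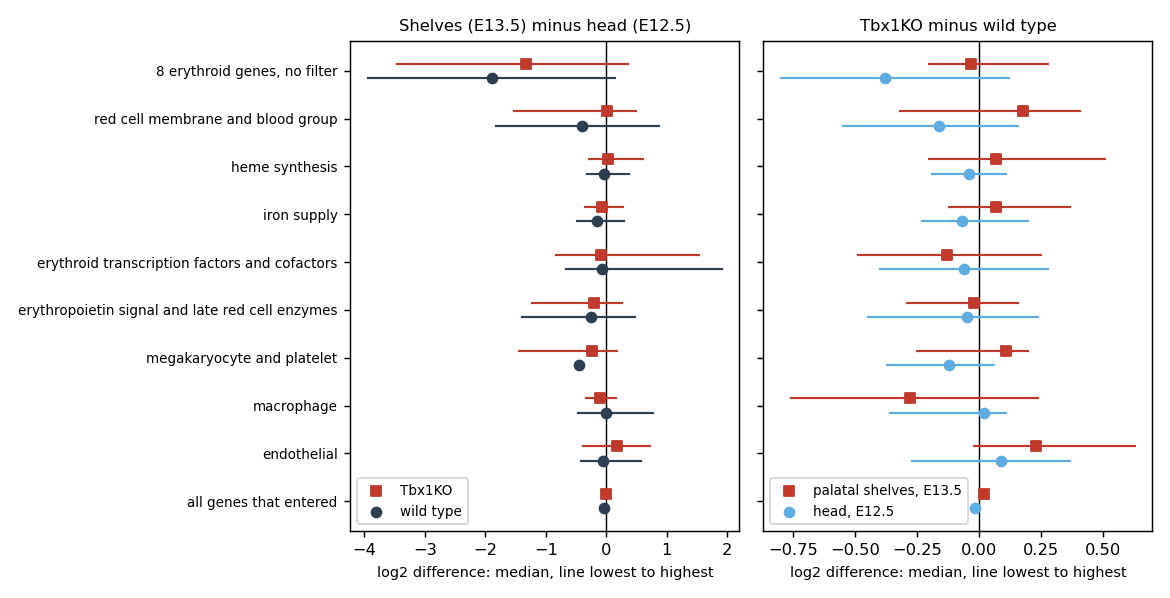
Median log2 difference of each gene list (points), with a line to its lowest and highest gene, for shelves minus head (left, Tbx1KO squares and wild type circles) and for Tbx1KO minus wild type (right, shelves squares and head circles). The 8 erythroid genes are drawn with no filter, the other lists with the genes that entered, and all genes as a point alone. On the left only the 8 erythroid genes have medians below -1 (-1.33 in Tbx1KO and -1.89 in wild type).

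Between genotypes, the erythroid genes had mostly lower values in the Tbx1KO than in the wild-type head, and values on both sides of 0 in the shelves. In the E12.5 head 7 of the 8 genes were lower in Tbx1KO than in wild type, where 47.8% of all genes and 55.5% of those that entered were. By at least 0.32 on the log2 scale 5 were lower, against 3.67% of all genes and 2.41% of those that entered, and 0 were higher, against 6.60% and 1.74%. At 1.5-fold 1 gene, Kel, was lower, against 0.528% of all genes, and at 2-fold 0 were, against 0.0406%. In the E13.5 shelves 4 were lower and 4 higher, where 51.3% of all genes and 44.8% of those that entered were lower. None of the 8 was lower or higher there by at least 0.32, where 8.85% and 7.25% of all genes (4.65% and 7.60% of those that entered) were. The median difference of the 8 genes was -0.03 in the shelves and -0.38 in the head, and that of all genes that entered was 0.021 and -0.017. Since each group is a single array, these differences have no replicate check. The genes and the cutoff of 0.32 were chosen with earlier results of these data known, so the counts and shares only describe these arrays. These comparisons use the same 4 arrays as those between tissues.

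In the head, Hbb-bh1 was 1.48-fold lower in Tbx1KO (log2 difference -0.56), and 51 of 11364 genes that entered were at least as much lower. Hbb-y was at -0.28 and Hba-x at -0.20. Slc4a1 was 1.37-fold lower (-0.45), Kel 1.74-fold lower (-0.80), Klf1 1.34-fold lower (-0.42) and Epb42 1.27-fold lower (-0.34). Gata1 was at 0.12. Klf1 was below the limit for entry on both head arrays, and Kel and Epb42 on the Tbx1KO head array, so their folds come from dim signals. For bright genes, 2 clusters of the same gene disagreed by an SD of 0.226 per cluster in the shelves, over 233 genes, and 0.176 in the head, over 232 genes. This spread holds no variation between embryos and is not shown to be technical alone. For shelves minus head it was larger, at 0.331 in the knockout and 0.455 in the wild type.

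The clusters with several genes were also below 0 in the head. The cluster of Alas2 and Apex2 was at -0.28 there, whereas that of Apex2 alone was at 0.13. The 3 adult beta globin clusters were at -0.37, -0.25 and -0.62, the last from a dim cluster below the limit for entry, and the 2 adult alpha clusters at -0.11 and -0.01.

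In the shelves, Hbb-bh1 was at -0.08, Slc4a1 at -0.08, Klf1 at -0.20 and Gata1 at -0.14. Hbb-y was at 0.16, Hba-x at 0.02, Kel at 0.25 and Epb42 at 0.28. Hbb-y, Hba-x and Slc4a1 reached the limit for entry there, and the other 5 genes were dim on both arrays. Hba-x turned to -0.01 in the shelves under 1 of 4 other normalizations or cluster choices.

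**Figure D5:**
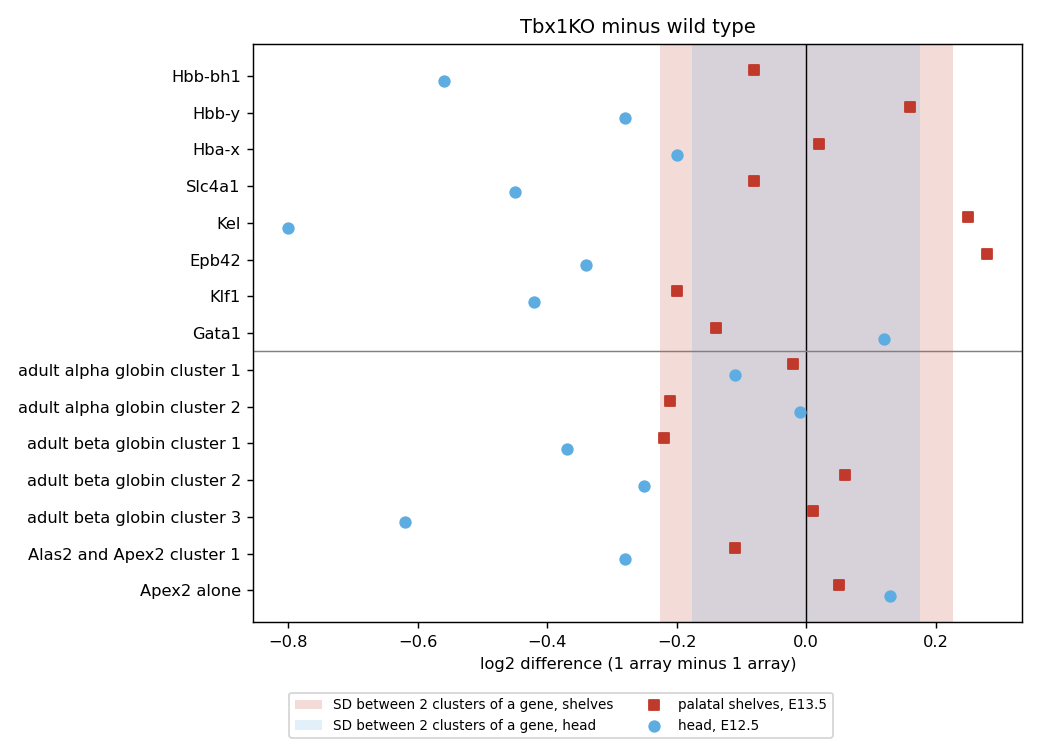
Log2 difference of Tbx1KO minus wild type in palatal shelves (squares) and head (circles), 1 array minus 1 array, with the same features as in the plot of shelves minus head. Shaded bands span 1 SD of the disagreement between 2 bright clusters of a gene on either side of 0 (0.226 in shelves, 0.176 in head) and hold no variation between embryos. Of the 8 genes, 4 are below 0 in the shelves and 7 in the head.

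Over both tissues no erythroid gene passed the limma fit for genotype. The difference was -0.32 (SE 0.14, limma adjusted p = 0.92) for Hbb-bh1, -0.27 (SE 0.12, limma adjusted p = 0.92) for Slc4a1 and -0.27 (SE 0.23, limma adjusted p = 0.98) for Kel. It was -0.09 (SE 0.11) for Hba-x, -0.06 (SE 0.13) for Hbb-y and -0.03 (SE 0.16) for Epb42, with limma adjusted p of 0.98 to 0.99. Of the 6 genes 0 had an unadjusted limma p under 0.05, and of all 11999 genes tested 0 passed and 628 had an unadjusted p under 0.05. Whether the genotype difference differs between head and shelves could not be tested, since such a fit would use up all 4 arrays.

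Other red cell genes in the Tbx1KO head are read against the genes that entered, of which 55.5% were below 0 and 2.41% lower by at least 0.32. Of 12 membrane and blood group genes that entered, 9 were below 0 and 2 lower by at least 0.32, Xk, a partner of the Kell protein (-0.55), and Cd59a, a complement inhibitor (-0.39). Of 14 genes of erythropoietin signalling and late enzymes, 8 were below 0 and 2 that much lower, Car2 (-0.45) and Bpgm (-0.36). Of 17 transcription factors 10 were below 0 and 1 was that much lower, Gfi1b, a repressor of red cell and platelet precursors (-0.40), while Tal1 was at 0.28. Of 12 heme synthesis and 10 iron supply genes, 10 and 7 were below 0 and none was that much lower.

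In the shelves 44.8% of the genes that entered were below 0, 4.65% lower by at least 0.32 and 7.60% that much higher. Of 9 membrane and blood group genes 0 were that much lower and 2 higher, the glucose transporter gene Slc2a4 (0.41) and Ackr1 (0.33), an atypical chemokine receptor. Of 15 transcription factors 3 were that much lower and 0 higher. Gfi1b was at -0.49, Lyl1, a relative of Tal1, at -0.34, and Myb, a factor of blood progenitors, at -0.33. Of 12 heme synthesis genes 1 was that much higher, Alad (0.51), as was 1 of 10 iron supply genes, Tfrc (0.37), and of 14 genes of erythropoietin signalling and late enzymes 0 were called either way. Over the lists the median differences in shelves and head were 0.18 and -0.16 for membrane and blood group genes, 0.07 and -0.04 for heme synthesis, 0.07 and -0.07 for iron supply, -0.13 and -0.06 for transcription factors, and -0.02 and -0.05 for erythropoietin signalling and late enzymes.

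Sex-linked genes differed along with genotype in the head. Xist, made from the inactive X chromosome, was at 10.04 in Tbx1KO and 11.10 in wild-type head, and the Y-linked gene Eif2s3y at 8.50 in Tbx1KO and 7.09 in wild-type head. In the shelves Xist was at 11.02 in Tbx1KO and 10.89 in wild type, and Eif2s3y was at 8.43 in Tbx1KO and 8.23 in wild type. Whether an array held RNA from embryos of both sexes was not tested. Gata1, Alas2 and Xk lie on the X chromosome, whereas the globin, band 3, Kell, protein 4.2 and Klf1 genes are autosomal. Endothelial genes had a median difference of 0.23 in the shelves and 0.09 in the head, with 1 of 11 and 4 of 12 below 0. Macrophage genes had one of -0.28 in the shelves and 0.02 in the head, with 5 of 7 and 3 of 7 below 0. The part of embryo sex and of blood content in the head differences was not tested.

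The genes whose 4 levels were most like the mean pattern of the 6 erythroid genes that entered were not chosen by function. After each gene was centred on its own mean, the mean pattern was -1.01 in Tbx1KO shelves, -1.10 in wild-type shelves, 0.84 in Tbx1KO head and 1.27 in wild-type head. The nearest was Pou4f1, a factor of sensory neurons, with a root mean square distance of 0.047 over the 4 arrays. Next were Hoxa5 (0.11), Igdcc3 (0.12), Zswim5 (0.12), Celf3 (0.13), Nes (0.14), Ckb (0.15) and Lmo1 (0.15). Among the erythroid genes themselves the distance was 0.095 for Hba-x, 0.13 for Slc4a1, 0.15 for Kel, 0.35 for Hbb-y, 0.48 for Epb42 and 0.8 for Hbb-bh1.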

How the data were processed

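Per the submitters' processing notes, the authors made the deposited log2 values with RMA in Affymetrix Expression Console. Tool versions and the build: not given in the sources used here. Groups came from the sample titles; another label field calls the E13.5 samples heads. Of 41345 clusters, 23521 had 1 gene symbol in the platform annotation, and clusters of 1 gene were averaged, giving 22180 genes. No 2 arrays were identical. The number of arrays sets the precision.

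Differences within a genotype or tissue were counted from 0.32 on the log2 scale, with no test. The additive fit of genotype and tissue used limma 3.58.1 in R 4.3.3 (lmFit, eBayes, Benjamini-Hochberg over all genes whose highest array was at or above 6.16). Its prior had 5.49 degrees of freedom and an SD of 0.107. The fit was tested on simulated data. Alternatives were median centring, cyclic loess, a second quantile normalization, a gene's brightest cluster, other filters and folds, and other priors. The fit over all clusters was added after the data were seen. The members, gene lists and thresholds were chosen with earlier results of these data known. All 8 measured members are named, with Tbx1, sex-linked genes, up to 4 genes per list and comparison with the largest difference, and the 8 genes nearest in pattern; predicted genes were skipped. List genes called by limma are named from the same choice. Some list genes without a cluster of their own were not analysed here.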

Additional observations from a re-analysis of the deposited data

Results flagged for a closer look

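For 5 genes the difference between Tbx1KO and wild type had opposite signs in shelves and head, and the difference between the tissues was not tested. Shelves minus head of that difference, on the log2 scale, was 1.04 for Kel (0.25 in shelves and -0.80 in head), 0.62 for Epb42 (0.28 and -0.34), 0.44 for Hbb-y (0.16 and -0.28), 0.22 for Hba-x (0.02 and -0.20) and -0.27 for Gata1 (-0.14 and 0.12). Each value rests on 4 arrays, 1 per group. Kel, Epb42 and Gata1 were dim in the shelves, below the limit for entry of 6.16.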

How the results depend on the processing

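Of 66 counts of members under an alternative, 61 stayed within 1.5 times the reported count. Many of these were counts of 0 that stayed 0, and 4 in place of 6 was taken as within 1.5 times. The other 5 were as follows. At 1.5-fold and 2-fold, 1 and 0 genes were lower in the Tbx1KO head, in place of 5 at a log2 difference of 0.32, and 0 and 0 were higher in the Tbx1KO shelves than in the Tbx1KO head, in place of 1. With cyclic loess 1 gene, in place of 0, was higher by that much in Tbx1KO than in wild-type shelves. Outside these 66, counts of members that entered moved under 2 filters. With the upper-quartile filter 2, in place of 4, were lower in the Tbx1KO head. With no filter 1, in place of 0, was higher in the Tbx1KO shelves than in the Tbx1KO head. In the limma fit for tissue, 6 genes were called under each alternative except the brightest cluster (5) and the upper-quartile filter at 7.79 (4), which let fewer of them enter. Limma adjusted p over the alternatives reached at most 0.038 for Epb42 and 0.032 for Kel, and at most 0.02 for the other 4. The genotype effect called 0 of them under every alternative run. Over all genes it called 0 as reported, 11 with a mean-variance trend and 150 with 1 common variance. The tissue effect called 1787 genes lower and 1555 higher as reported, and 1087 and 955 over clusters. Leaving out 1 array leaves the difference of the other pair, a value with no test. The genotype effect then ran from -0.80 to 0.25 for Kel, from -0.34 to 0.28 for Epb42, from -0.28 to 0.16 for Hbb-y and from -0.20 to 0.02 for Hba-x, so its direction turns with the pair. No paired analysis was possible because the labels give no replicate numbers and each group has 1 array; the limma fit already holds tissue as a term. Signals near or below the limit for entry, and those near the top of the array, restrict what folds can show.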

Other observations

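Hbq1a, Hbq1b and Hbb-bh2, the other globin genes with a cluster of their own, lay below the limit for entry on every array. Hbq1b, a theta-type alpha-like globin, had differences between tissues of -0.17 in both genotypes. Hbq1a was at -0.51 in the knockout and -0.45 in the wild type, and Hbb-bh2 at -0.46 in the knockout and 0.29 in the wild type.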
